A study of Homo sapiens with 12 samples.

Results

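Plasma cell differentiation was followed through 8 genes that encode its regulators and markers: the transcription factors PRDM1, IRF4 and XBP1, the receptor TNFRSF17, the RNA-modifying and elongation factors TENT5C and ELL2, and the markers SDC1 and JCHAIN. Their probe sets were taken wherever the platform annotation gives exactly 1 gene symbol and that symbol is one of the 8. This yielded 18 probe sets, of 41091 with 1 symbol, and 8 genes of 19775. Expression was measured with Affymetrix U133 Plus 2.0 arrays in OCI-Ly7 and Pfeiffer, 2 established human diffuse large B-cell lymphoma lines of the germinal centre type. Cells of each line had been transfected transiently with BCL6 siRNA or with a non-targeting control RNA, and total RNA was taken 48 h later. There were 3 arrays in each of the 4 groups, namely OCI-Ly7 control, OCI-Ly7 BCL6 siRNA, Pfeiffer control and Pfeiffer BCL6 siRNA. The control is named NTsiRNA in the OCI-Ly7 titles and NTshRNA in the Pfeiffer titles, although the Pfeiffer descriptions call it an siRNA. The knockdown was transient and the labels do not name separate cultures for the arrays of a group, so the p-values measure only how far these samples lie apart, and that spread may be technical.

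A B cell becomes an antibody-secreting plasma cell by switching off the germinal centre and B cell programmes and building up a secretory apparatus. BCL6 is a transcriptional repressor that holds cells in the germinal centre state, and PRDM1 is among the genes it is known to repress. IRF4 promotes the switch and activates PRDM1, PRDM1 in turn represses BCL6 and other B cell regulators, and XBP1 drives expansion of the endoplasmic reticulum. TNFRSF17, SDC1 and JCHAIN are used as markers of the resulting cells.

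Levels are given as log2(signal + 16), where signal is the deposited MAS5 value on the linear scale, and every change is BCL6 siRNA minus control on that scale. This scale understates the change of dim probe sets. Adjusted p-values come from limma, fitted across all 41091 probe sets and adjusted by Benjamini-Hochberg over them, and a probe set is called when its adjusted p is below 0.05. SE is limma's moderated standard error. Levels of different probe sets are not compared with each other, since each binds its target with its own strength. Within a line, an exact two-sided permutation test of 3 arrays against 3 cannot go below p = 0.1, which it reaches whenever the arrays of the groups do not overlap.

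BCL6 itself was lower after its siRNA in both lines by 2 of its 3 probe sets and in Pfeiffer by all 3. Its brightest probe set changed by -0.42 ± 0.08 (SE) in OCI-Ly7, to 74.6% of the control (limma, adjusted p = 0.0217), and by -0.96 ± 0.08 (SE) in Pfeiffer, to 51.3% (limma, adjusted p = 1.77e-06). Another stood at 71.3% and 40.9% (limma, adjusted p = 0.0132 and 1.85e-07). The third stood at 89.2% in OCI-Ly7, not called (adjusted p = 0.574), and at 51% in Pfeiffer (adjusted p = 3.6e-06). All 5 B cell markers analysed were brighter than the median probe set. Their summed linear signal was 49500 to 51700 on OCI-Ly7 control arrays, and 59300 to 60400 on siRNA arrays, but 44000 to 44500 and 29300 to 33400 in Pfeiffer. Of the B cell markers 2 were called higher in OCI-Ly7 and 4 lower in Pfeiffer, and the part of this in the results on the plasma cell genes was not tested. In such bulk RNA, fewer cells of a type and less RNA per cell cannot be told apart. None of 5 myeloid markers was brighter than the median probe set, and 1 of 5 T cell markers was, CD8A in Pfeiffer, while CD3D and CD3E were not. The summed myeloid signal was 126 to 266 on all arrays, and that of the T cell markers 142 to 275 in OCI-Ly7, 11600 to 13100 in Pfeiffer controls and 13900 to 15400 on Pfeiffer siRNA arrays. In limma 0 of these 10 were called in either line, and at an unadjusted p of 0.05 only myeloid markers in Pfeiffer passed, 2 higher and 1 lower. Pfeiffer siRNA replicate 3 stood apart in the log2 ratio of 3' to 5' probe sets, at -0.027 for GAPDH, where the 5 other Pfeiffer arrays gave -0.134 to -0.094. For ACTB it had 0.388, and the others 0.278 to 0.308. Calls of member probe sets that change without that array are given beside the value. For the lists, counts without it are given where they differ, but not which genes crossed the threshold.

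In OCI-Ly7, 3 of the 18 probe sets were called higher and 0 lower after BCL6 siRNA, where 0.241% of all probe sets were called higher and 0.214% lower. The 3 belonged to XBP1, TNFRSF17 and TENT5C. At an unadjusted p of 0.05 in limma, 6 were higher and 1 lower. In Pfeiffer, 10 of the 18 were called higher and 0 lower, against 2.37% and 2.44% of all probe sets, and they belonged to PRDM1, IRF4, XBP1, TENT5C and ELL2. At an unadjusted p of 0.05 in limma, 13 were higher and 1 lower there. Without Pfeiffer siRNA replicate 3, 8 of the 18 were called in Pfeiffer. Every siRNA array lay on one side of every control array for 6 of the 18 in OCI-Ly7, against 15.5% of all probe sets, and for 14 in Pfeiffer, against 20.1%. The median change of the 18 was 0.29 in OCI-Ly7 and 0.76 in Pfeiffer, where the median over all probe sets was -0.01 and 0.02. With 1 probe set per gene, the brightest, 3 of 8 genes were called higher in OCI-Ly7 and 5 of 8 in Pfeiffer, and the medians were 0.39 and 0.63. Of the 18 probe sets, 5 were dimmer than the median probe set by the brighter of the lines, 1 each of IRF4, XBP1 and ELL2 and both of SDC1. With only probe sets above the median level fitted, 4 of 13 members were called in OCI-Ly7 and 10 of 13 in Pfeiffer. Of all 20546 such probe sets, 331 and 2556 were called, in either direction. The shares over all probe sets are therefore a low comparison for the members.

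**Figure D1:**
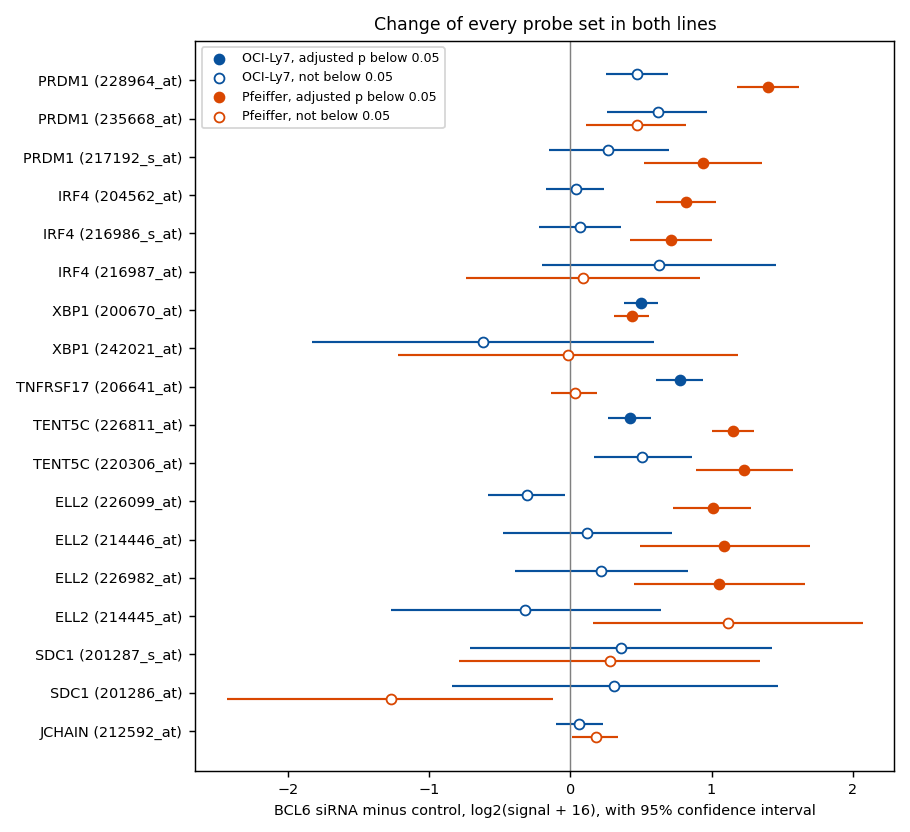
Change of each of the 18 probe sets, BCL6 siRNA minus control in log2(signal + 16), on the x axis, with 95% confidence intervals from limma; OCI-Ly7 is blue, Pfeiffer orange, and filled points have an adjusted p below 0.05. In Pfeiffer 10 points are filled and in OCI-Ly7 3, all to the right of 0, and the dim probe sets of SDC1, XBP1, ELL2 and IRF4 have wide intervals.

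PRDM1 encodes BLIMP1, the zinc finger repressor that ends the B cell programme. Its brightest probe set, 228964_at, read 7.52, 7.82 and 7.88 in OCI-Ly7 controls and 8.07, 8.33 and 8.23 after BCL6 siRNA. In Pfeiffer it read 10.75, 10.76 and 10.66 on control arrays and 12.04, 12.13 and 12.19 on siRNA arrays. The 4 groups did not overlap, and their order was OCI-Ly7 control, OCI-Ly7 siRNA, Pfeiffer control, Pfeiffer siRNA. The change in Pfeiffer was 1.40 ± 0.10 (SE), a 2.64-fold rise (limma, adjusted p = 8.45e-07), with a 95% confidence interval of 1.18 to 1.62 on the log2 scale. In OCI-Ly7 the change was 0.47 ± 0.10 (SE), with 0.25 to 0.69 as its interval, and just missed the threshold (limma, adjusted p = 0.0633). It passed in limma in 4 of 22 other settings. With only probe sets above the median level fitted, its adjusted p was 0.0374. Quantile normalization, array weights, and 1 probe set per gene above the median level also gave a call. In the remaining settings it was not called, with adjusted p up to 0.366. The rise was larger in Pfeiffer, by 0.93 ± 0.15 (SE; limma, adjusted p = 0.00235).

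The other PRDM1 probe sets gave 0.62 and 0.27 in OCI-Ly7 and 0.47 and 0.94 in Pfeiffer. Probe set 235668_at read 7.18 to 7.72 on OCI-Ly7 control arrays, and 7.97 to 8.10 on siRNA arrays, and 8.74 to 9.24 and 9.32 to 9.66 in Pfeiffer. Its arrays separated by treatment in both lines, but neither change was called (limma, adjusted p = 0.15 and 0.149). Probe set 217192_s_at read 6.70 to 7.28 and 6.99 to 7.72 in OCI-Ly7, where the groups overlapped, and 8.64 to 8.91 and 9.58 to 9.79 in Pfeiffer. It was called in Pfeiffer alone (limma, adjusted p = 0.0114), a call that ended without control replicate 2 or siRNA replicate 2 of Pfeiffer (adjusted p = 0.0525 and 0.0513) and in limma without a trend (adjusted p = 0.0556). Its difference between the lines was not called (0.66, adjusted p = 0.315). The difference between the lines for 235668_at was -0.15, with an interval of -0.65 to 0.35, so the 3 probe sets do not give the same contrast of the lines.

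PRDM1 also differed between the controls of the lines. In control cells 228964_at was 2.98 ± 0.10 (SE) higher in Pfeiffer than in OCI-Ly7 (limma, adjusted p = 1.54e-12), and the other probe sets were 1.58 and 1.74 higher (adjusted p = 7.55e-07 and 2.12e-06). The siRNA comparisons and this baseline comparison share the control arrays.

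The sequence upstream of PRDM1 is shown because PRDM1 is known as a gene that BCL6 represses. It covers the 250 bases before the first annotated start, chr6:106086086-106086335 on the plus strand of GRCh38.p14, from RefSeq, printed 5′ to 3′ in lower case. A window was found for 6 of the 8 members.
PRDM1: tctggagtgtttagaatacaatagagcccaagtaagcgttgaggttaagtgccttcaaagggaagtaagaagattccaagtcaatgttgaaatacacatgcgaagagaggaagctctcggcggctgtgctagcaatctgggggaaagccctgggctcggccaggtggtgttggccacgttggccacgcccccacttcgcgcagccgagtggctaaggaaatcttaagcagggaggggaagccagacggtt
The letters searched, on both strands, were TTCCNNGAA for sites of BCL6, which STAT factors also bind, GAAANNGAA for paired IRF sites, GTGAAAG for PRDM1 and TGACGTG for XBP1 and ATF6. Of 35097 windows of the same length upstream of all annotated starts, 3.86%, 6.88%, 3.28% and 1.68% held them. None of the 9 windows of the members held any of the 4, the second start of PRDM1 included, which says only that these letters are not in these windows.

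IRF4 is an interferon regulatory factor that drives plasma cell fate at high levels. Probe set 204562_at read 11.90, 11.75 and 12.14 on OCI-Ly7 control arrays, and 11.85, 12.07 and 11.98 on siRNA arrays. In Pfeiffer the control arrays read 11.92, 11.77 and 12.01 and the siRNA arrays 12.62, 12.66 and 12.89. Both OCI-Ly7 groups and the Pfeiffer control lay in one overlapping range, and the Pfeiffer siRNA arrays stood above it. The change in Pfeiffer was 0.82 ± 0.10 (SE), or 1.76-fold (limma, adjusted p = 0.000103). In OCI-Ly7 it was 0.04 ± 0.10 (SE; limma, adjusted p = 0.968), and the 95% confidence interval ran from -0.17 to 0.24. The difference between the lines was 0.78 ± 0.14 (SE; limma, adjusted p = 0.00611).

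The second IRF4 probe set, 216986_s_at, read 8.30 to 8.62 and 8.39 to 8.66 in OCI-Ly7 and 8.65 to 8.79 and 9.26 to 9.65 in Pfeiffer. Its changes of 0.07 in OCI-Ly7 and 0.71 in Pfeiffer (limma, adjusted p = 0.948 and 0.00554) were close in size to those of the first, while its difference between the lines of 0.64 missed the threshold (adjusted p = 0.113). The third, 216987_at, was dim in all groups, between 4.10 and 5.55, and showed changes of 0.63 and 0.09 with intervals that include 0. In control cells 204562_at overlapped between the lines, with a baseline difference of -0.03 and an interval of -0.24 to 0.18. The control arrays of 216986_s_at did not overlap, and its difference of 0.22, higher in Pfeiffer, was not called (limma, adjusted p = 0.242) except with quantile normalization (0.376, adjusted p = 0.0389).

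The sequence before the IRF4 start is shown with a match to the TATA box letters, TATAAA, in capitals. It is chr6:391502-391751 on the plus strand of GRCh38.p14, from RefSeq.
IRF4: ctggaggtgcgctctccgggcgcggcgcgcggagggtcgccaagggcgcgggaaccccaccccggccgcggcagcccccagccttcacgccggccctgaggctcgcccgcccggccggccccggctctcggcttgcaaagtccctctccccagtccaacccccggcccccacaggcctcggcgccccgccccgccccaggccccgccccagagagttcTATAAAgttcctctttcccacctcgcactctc
The match begins 32 bases before the start, and 10.7% of all windows hold these letters on either strand. This search and the one for XBP1 were added after the windows had been read.

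XBP1 is the transcription factor of the unfolded protein response that enlarges the secretory apparatus. Its bright probe set, 200670_at, read 13.01, 12.98 and 12.95 on OCI-Ly7 control arrays, and 13.56, 13.36 and 13.54 on siRNA arrays. In Pfeiffer the readings were 13.89, 13.93 and 13.84 for the control and 14.31, 14.34 and 14.32 for the siRNA. All groups were separate, with Pfeiffer control above OCI-Ly7 siRNA. XBP1 rose by 0.50 ± 0.06 (SE) in OCI-Ly7, or 1.42-fold (limma, adjusted p = 0.000727), and by 0.44 ± 0.06 (SE) in Pfeiffer, or 1.35-fold (limma, adjusted p = 0.000227). The call in OCI-Ly7 was lost in limma without a trend (adjusted p = 0.12). The difference between the lines was -0.07 with a 95% confidence interval of -0.24 to 0.11. The baseline level was 0.91 ± 0.06 (SE) higher in Pfeiffer (limma, adjusted p = 1.76e-09).

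The second XBP1 probe set, 242021_at, was dim and scattered, between 4.74 and 7.02 over all arrays. Its changes of -0.62 and -0.02 had intervals of -1.83 to 0.59 and -1.22 to 1.19. These include the changes of 200670_at, so this probe set neither shows the rise nor shows that it is missing. The array signals do not separate spliced from unspliced XBP1 mRNA.

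The window before the first XBP1 start is shown because it holds a match to the endoplasmic reticulum stress response element, a composite site for ATF6 with NF-Y, in capitals. It is chr22:28800570-28800819 on the minus strand of GRCh38.p14, from RefSeq.
XBP1: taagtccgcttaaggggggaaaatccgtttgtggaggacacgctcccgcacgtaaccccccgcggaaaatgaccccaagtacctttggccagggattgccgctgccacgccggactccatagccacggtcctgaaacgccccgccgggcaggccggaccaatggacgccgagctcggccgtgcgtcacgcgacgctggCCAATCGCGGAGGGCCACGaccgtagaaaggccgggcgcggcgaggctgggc
The element, CCAAT and CCACG with 9 bases between them, begins 52 bases before the start. It was found in 26 of the 35097 windows, or 0.0741%.

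TNFRSF17 encodes BCMA, the receptor through which plasma cells receive survival signals from BAFF and APRIL. Its single probe set, 206641_at, read 11.48, 11.44 and 11.76 on OCI-Ly7 control arrays, and 12.32, 12.43 and 12.26 on siRNA arrays. In Pfeiffer it read 14.49, 14.46 and 14.51 and then 14.50, 14.59 and 14.44. The OCI-Ly7 groups were separate, both Pfeiffer groups lay in one range, and that range was far above OCI-Ly7. TNFRSF17 rose by 0.78 ± 0.08 (SE) in OCI-Ly7, or 1.71-fold (limma, adjusted p = 0.000256). In Pfeiffer the change was 0.03 ± 0.08 (SE; limma, adjusted p = 0.937), and the 95% confidence interval ran from -0.14 to 0.19. It was the only member whose rise was larger in OCI-Ly7 by a called difference, at -0.75 ± 0.11 (SE; limma, adjusted p = 0.00139). In control cells it was 2.92 ± 0.08 (SE) higher in Pfeiffer, or 7.59-fold (limma, adjusted p = 8.09e-14). The deposited table carries no saturation flag, so whether the bright Pfeiffer signal could still rise was not tested.

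**Figure D2:**
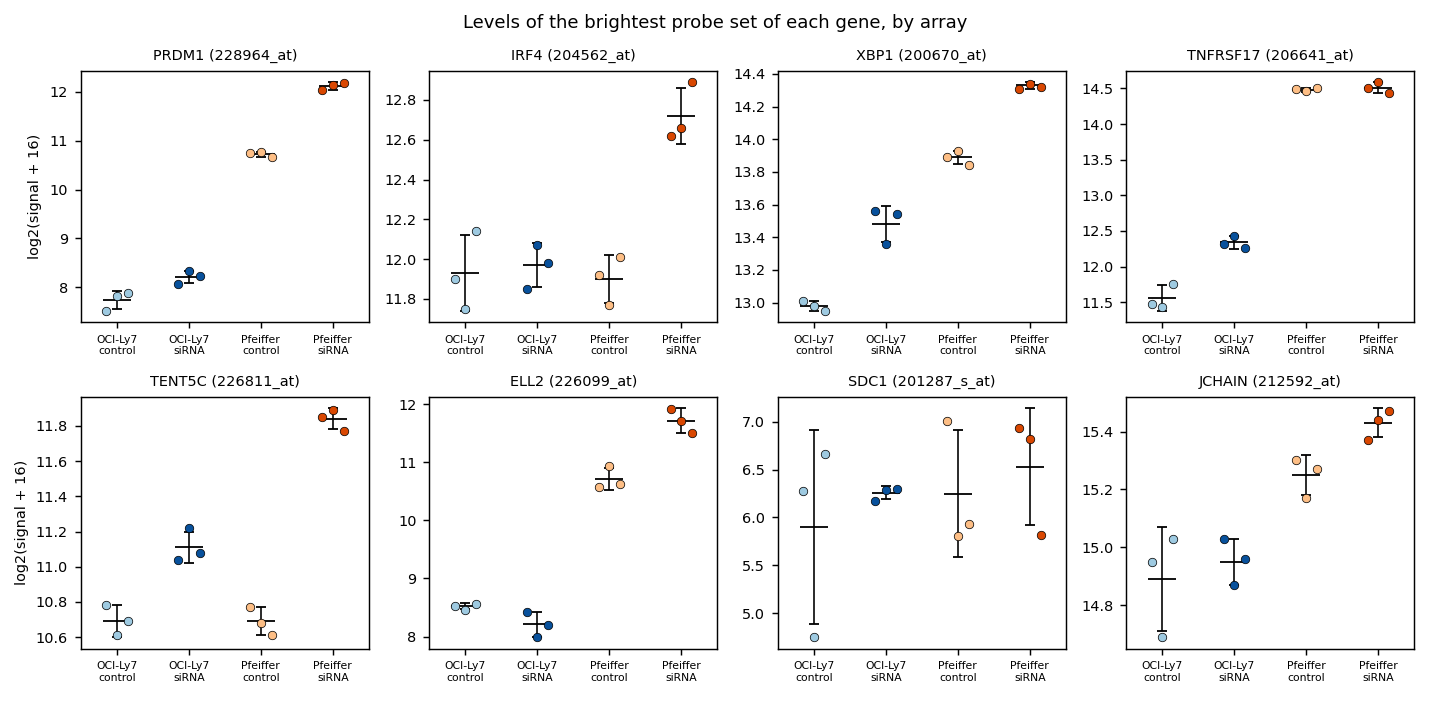
Level in log2(signal + 16) of the brightest probe set of each of the 8 genes on each of the 12 arrays, with the group mean and SD (n = 3) as black bars; each panel has its own y axis, which does not start at 0. PRDM1, XBP1 and TENT5C stand higher on siRNA arrays in both lines, IRF4 and ELL2 in Pfeiffer, and TNFRSF17 in OCI-Ly7, while the SDC1 groups overlap.

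TENT5C, formerly FAM46C, is a poly(A) polymerase that lengthens the tails of mRNAs for secreted proteins in plasma cells. Probe set 226811_at read 10.78, 10.61 and 10.69 on OCI-Ly7 control arrays, and 11.04, 11.22 and 11.08 on siRNA arrays. The Pfeiffer arrays read 10.77, 10.68 and 10.61 for the control and 11.85, 11.89 and 11.77 for the siRNA. The controls of the lines overlapped, the OCI-Ly7 siRNA arrays lay above them, and the Pfeiffer siRNA arrays lay highest. The rise was 1.15 ± 0.07 (SE) in Pfeiffer, or 2.22-fold (limma, adjusted p = 1.33e-07). In OCI-Ly7 it was 0.42 ± 0.07 (SE), or 1.34-fold (limma, adjusted p = 0.0132). That call ended without any of 4 OCI-Ly7 arrays, control replicates 2 and 3 and siRNA replicates 2 and 3 (adjusted p = 0.0678, 0.0582, 0.0612 and 0.0512), and in limma without a trend (adjusted p = 0.228). The rise was larger in Pfeiffer by 0.73 ± 0.10 (SE; limma, adjusted p = 0.000894).

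Its second probe set, 220306_at, gave 0.51 and 1.23. It read 8.57 to 9.30 and 9.28 to 9.55 in OCI-Ly7, where the ranges touched, and 9.25 to 9.40 and 10.27 to 10.81 in Pfeiffer. Only the Pfeiffer change was called (limma, adjusted p = 0.255 and 0.000263). For the control cells 226811_at gave a difference between the lines of -0.01 with an interval of -0.15 to 0.14, whereas 220306_at gave 0.42 at an adjusted p of 0.0499, a call lost without any of 9 arrays, all but OCI-Ly7 control replicate 3 and Pfeiffer siRNA replicates 2 and 3. It was 0.25 without OCI-Ly7 control replicate 1 (adjusted p = 0.253).

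The window before the TENT5C start is printed to set it beside the others. It is chr1:117605798-117606047 on the plus strand of GRCh38.p14, from RefSeq, with none of the searched letters in it.
TENT5C: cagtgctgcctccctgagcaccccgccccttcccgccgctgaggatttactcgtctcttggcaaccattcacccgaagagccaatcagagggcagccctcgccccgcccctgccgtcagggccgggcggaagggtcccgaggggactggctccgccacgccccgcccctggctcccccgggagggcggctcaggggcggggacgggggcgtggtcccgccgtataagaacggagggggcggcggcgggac
Its G and C content was 74%, with that of IRF4 at 76%, XBP1 at 67.6% and PRDM1 at 53.6%, against a median of 58% over all windows. The window of JCHAIN, not printed, held 32.8%.

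ELL2 is an elongation factor that favours the secreted form of immunoglobulin heavy chain mRNA in plasma cells. Probe set 226099_at read 8.53, 8.46 and 8.56 on OCI-Ly7 control arrays, and 8.43, 7.99 and 8.20 on siRNA arrays. In Pfeiffer it read 10.57, 10.93 and 10.63, and then 11.92, 11.72 and 11.51. In OCI-Ly7 all siRNA arrays lay below all control arrays, and in Pfeiffer all lay above. The Pfeiffer change was 1.01 ± 0.13 (SE), a 2.01-fold rise (limma, adjusted p = 0.000183). The OCI-Ly7 change of -0.31 ± 0.13 (SE) was not called (limma, adjusted p = 0.46), although its interval of -0.58 to -0.04 leaves out 0. The difference of 1.31 ± 0.18 (SE) was the largest among the 5 member probe sets whose difference between the lines was called (limma, adjusted p = 0.000967).

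All 4 ELL2 probe sets changed by a similar amount in Pfeiffer. The 3 dimmer ones, 214446_at, 226982_at and 214445_at, gave 1.09, 1.05 and 1.12, each siRNA array above each control array. The first read 8.10 to 8.51 on control arrays and 9.29 to 9.44 on siRNA arrays, and the second 8.47 to 8.56 and 9.48 to 9.64. Both were called (limma, adjusted p = 0.0371 and 0.0462), but narrowly, and each lost the call when any one of the 6 arrays of Pfeiffer was left out (adjusted p up to 0.138 and 0.137). For replicate 3 of the siRNA these were 0.075 and 0.127. Both calls ended too with a pseudocount of 1 (adjusted p = 0.0751 and 0.122) and in limma without a trend (0.105 and 0.112). That of 214446_at ended with quantile normalization (adjusted p = 0.0524) and that of 226982_at with array weights (adjusted p = 0.0597). The call of 226982_at also ended without OCI-Ly7 control replicate 1 (adjusted p = 0.0554). The third read 5.72 to 6.15 and 7.01 to 7.14 and was not called (limma, adjusted p = 0.221). In OCI-Ly7 they gave 0.12, 0.22 and -0.32 with intervals that include 0, so no ELL2 probe set was called there. In control cells 3 of the 4 were 2.09 to 2.72 higher in Pfeiffer and were called, while 214445_at differed by -0.01.

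SDC1 encodes syndecan-1, or CD138, the surface proteoglycan by which plasma cells are usually sorted. Probe set 201287_s_at read 6.28, 4.75 and 6.66 and then 6.17, 6.29 and 6.30 in OCI-Ly7, and 7.01, 5.81 and 5.93 and then 6.94, 6.82 and 5.82 in Pfeiffer. All 4 groups overlapped. Its changes were 0.36 in OCI-Ly7 and 0.28 in Pfeiffer, with 95% confidence intervals of -0.71 to 1.43 and -0.79 to 1.34. Probe set 201286_at gave 0.31 in OCI-Ly7 and -1.27 in Pfeiffer, where its control arrays read 4.89, 6.05 and 6.18 and its siRNA arrays 4.42, 4.58 and 4.32. These Pfeiffer groups did not overlap, but the change was not called (limma, adjusted p = 0.256). Both probe sets were dimmer than the median probe set in both lines, and the intervals of 201287_s_at include changes as large as that of PRDM1 in OCI-Ly7. Neither differed between the controls of the lines by a call, although 201286_at did without OCI-Ly7 control replicate 3 (adjusted p = 0.0429).

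JCHAIN encodes the chain that joins IgM and IgA into polymers and was bright on every array. Whether so bright a signal could still rise was not tested, as for TNFRSF17. Probe set 212592_at read 14.95, 14.69 and 15.03 on OCI-Ly7 control arrays, and 15.03, 14.87 and 14.96 on siRNA arrays. In Pfeiffer the values were 15.30, 15.17 and 15.27 and then 15.37, 15.44 and 15.47. The OCI-Ly7 groups overlapped and the Pfeiffer groups did not. The changes were 0.06 ± 0.08 (SE) and 0.18 ± 0.08 (SE), neither called (limma, adjusted p = 0.901 and 0.278), with intervals of -0.10 to 0.23 and 0.01 to 0.34. With quantile normalization the Pfeiffer change was 0.05 (adjusted p = 0.849). In control cells JCHAIN was 0.36 ± 0.08 (SE) higher in Pfeiffer (limma, adjusted p = 0.00125).

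**Figure D3:**
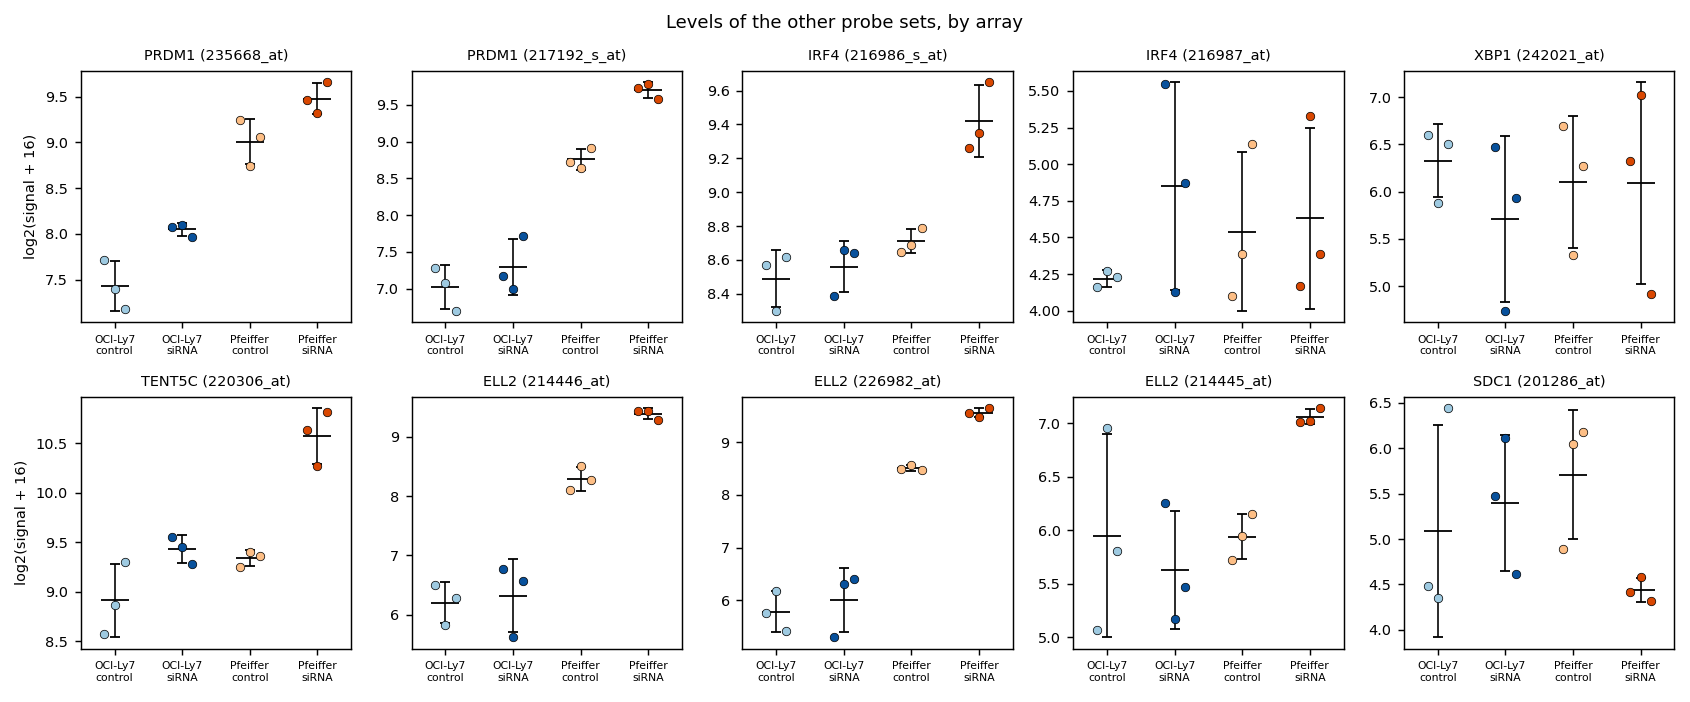
Level in log2(signal + 16) of the 10 other probe sets of these genes on each array, with group mean and SD (n = 3) as black bars; y axes differ between panels and do not start at 0. The 3 further ELL2 probe sets, both of the further PRDM1 ones, IRF4 216986_s_at and TENT5C 220306_at stand higher on Pfeiffer siRNA arrays than on Pfeiffer control arrays. The dim SDC1 201286_at stands lower on them, a change that was not called, and IRF4 216987_at and XBP1 242021_at scatter.

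The changes of the lines were compared directly for each probe set, although the titles name the controls of the lines differently. Of the 18, 5 were called different between the lines, against 2.4% of all probe sets. Of these 4 had the larger rise in Pfeiffer (PRDM1, IRF4, TENT5C and ELL2) and 1 the larger rise in OCI-Ly7 (TNFRSF17), each the brightest of its gene. All 5 held without each of the 12 arrays in turn. In limma without a trend ELL2 alone remained, and the others had adjusted p of 0.0564 to 0.121. With only probe sets above the median level fitted, 5 of 13 members were called different, and 1321 of 20546 over all such probe sets.

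Before any BCL6 siRNA, 10 of the 18 probe sets were called higher in Pfeiffer controls than in OCI-Ly7 controls and 0 lower, against 19.2% and 21.3% of all probe sets. At an unadjusted p of 0.05 in limma the counts were also 10 and 0. They were all 3 of PRDM1, 3 of ELL2, and 1 each of XBP1, TNFRSF17, TENT5C and JCHAIN. When only probe sets above the median level were fitted, 15406 of 20546 were called in either direction, and 10 of 13 member probe sets. With 1 probe set per gene above the median level, 7867 of 9888 genes were called, and 5 of 7 members. The members were thus called about as often as other probe sets of such brightness. The lines are different tumours, each represented by 1 line, so a difference between them is a difference of these lines. Their controls are also named differently in the titles, and a difference of control cannot be told apart from one of line.

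The members were also compared by how their brightest probe sets moved over the 12 arrays, after centring on the mean of each line. Over both lines PRDM1 gave a Pearson r of 0.97 with TENT5C, 0.90 with IRF4 and 0.35 with TNFRSF17. The order was another in OCI-Ly7 alone, at 0.81, 0.36 and 0.91, than in Pfeiffer alone, at 0.99, 0.97 and 0.23. TNFRSF17 and XBP1 gave 0.69 over both lines, 0.89 in OCI-Ly7 and 0.25 in Pfeiffer. TNFRSF17 and ELL2 gave -0.23 over both, -0.75 in OCI-Ly7 and 0.28 in Pfeiffer. These are descriptions over arrays that share lines and treatments, with no test. Among the 9888 genes above the median level, those most like PRDM1 by this measure were MSL1, a subunit of a histone acetyltransferase complex (0.979), TENT5C (0.968) and UHMK1, a kinase (0.962). For IRF4 they were SHMT2, the mitochondrial serine hydroxymethyltransferase (0.991), EIF4EBP2, an inhibitor of translation initiation (0.974), and DERL1, of the degradation pathway of the endoplasmic reticulum (0.974). For XBP1 they were IL21R, the IL-21 receptor (0.974), SPCS1, a signal peptidase subunit (0.970), and the endoplasmic reticulum chaperone HSP90B1 (0.961). For TNFRSF17 they were ERP29, a protein of the endoplasmic reticulum (0.951), NIPA2, a magnesium transporter (0.938), and AIDA (0.932).

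Related genes were described by 4 lists, with 1 probe set per gene, the brightest. Over all genes 0.369% were called higher and 0.268% lower in OCI-Ly7, and 2.86% and 3.05% in Pfeiffer. Nearly all list genes were brighter than the median probe set by the brighter of the lines. The counts were 17 of 17, 16 of 17, 16 of 17 and 18 of 18 in the order below. Some were below the median level of 7.24 in controls of the other line. BACH2 and MEF2C averaged 5.26 and 5.81 in Pfeiffer controls, and SLAMF7 and CD44 5.21 and 5.84 in OCI-Ly7 controls. When only the 9888 genes above the median level were fitted, 265 were called in OCI-Ly7 and 1603 in Pfeiffer, in either direction. The shares over all genes are therefore a low comparison for these lists. Of 17 genes for transcription factors that hold the B cell state or are repressed in plasma cells, 6 were called lower and 1 higher in Pfeiffer, with a median of -0.19. The Ets factor SPIB fell by 1.66 (limma, adjusted p = 4.44e-08), the B cell elongation factor ELL3 by 1.18 (adjusted p = 2.2e-07), IRF8 by 0.38 (adjusted p = 0.00103) and TCF3, which encodes the E2A proteins, by 0.30 (adjusted p = 0.00453). PAX5, the B cell identity factor that PRDM1 represses, fell by 0.53 (adjusted p = 0.0173), and BCL11A by 0.36 (adjusted p = 0.0305). The 1 higher was MYB (0.32, adjusted p = 0.0437). In OCI-Ly7 the same list had 1 gene higher, ID3, an inhibitor of E proteins (0.40, adjusted p = 0.013), and 0 lower, also 1 and 0 at an unadjusted p of 0.05 in limma. Without Pfeiffer siRNA replicate 3, 5 were lower and 1 higher in Pfeiffer.

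Of 17 cofactors and partners of the regulators, 3 were called higher and 4 lower in Pfeiffer. Those lower were HDAC1, a histone deacetylase (-0.57, limma, adjusted p = 9.86e-06), POU2F2, the octamer factor OCT2 (-0.95, adjusted p = 3.89e-05), IKZF3, which encodes AIOLOS (-0.53, adjusted p = 0.000283), and the histone methyltransferase EHMT2 (-0.50, adjusted p = 0.0189). Those higher were POU2AF1, the octamer coactivator (0.27, adjusted p = 0.00774), BATF, a partner of IRF4 (0.38, adjusted p = 0.0144), and BHLHA15, or MIST1, a factor of secretory cells (0.94, adjusted p = 0.0467). Without Pfeiffer siRNA replicate 3, 1 was called higher and 4 lower. In OCI-Ly7 0 were called in limma, against 1 higher and 2 lower at an unadjusted p of 0.05. BATF stood at -0.39 there (adjusted p = 0.0585), and its difference between the lines was called (adjusted p = 0.00206).

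Among 17 surface and secretory genes of plasma cells, 3 were called higher and 0 lower in Pfeiffer, namely the water channel AQP3 (0.43, limma, adjusted p = 0.00035), the kinase PIM2 (0.47, adjusted p = 0.00307) and the signal peptidase subunit SEC11C (0.26, adjusted p = 0.0257). At an unadjusted p of 0.05 in limma, 6 were higher and 2 lower there. In OCI-Ly7 SSR4, a translocon-associated subunit, was called higher (0.29, adjusted p = 0.0385) and 0 lower, against 4 and 3 at an unadjusted p of 0.05. CD38, a surface marker of plasma cells, averaged 11.06 in OCI-Ly7 controls and 5.12 in Pfeiffer controls and changed by 0.09 and -0.05, neither called (adjusted p = 0.971 and 0.97). Of 18 XBP1 target genes, only EDEM1, which routes misfolded proteins to degradation, was called higher in Pfeiffer (0.46, limma, adjusted p = 0.0106), and 0 lower. At an unadjusted p of 0.05 it was 1 higher and 2 lower there. Without Pfeiffer siRNA replicate 3, 1 was higher and 1 lower. In OCI-Ly7 0 were called in limma, although 3 were higher and 0 lower at an unadjusted p of 0.05, and HSPA5, the chaperone BiP, stood at 0.34 (adjusted p = 0.0633). The medians of the XBP1 targets were 0.09 in OCI-Ly7 and -0.04 in Pfeiffer.

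**Figure D4:**
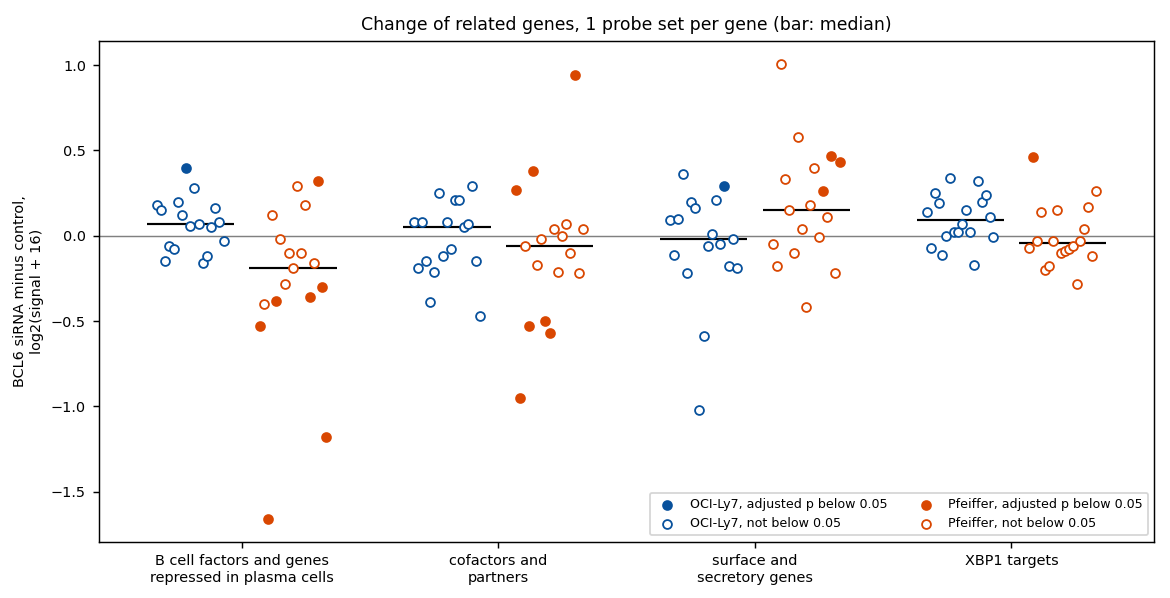
Change of each related gene, BCL6 siRNA minus control in log2(signal + 16), by list, with OCI-Ly7 in blue and Pfeiffer in orange; filled points have an adjusted p below 0.05 and black bars are medians. In Pfeiffer 6 B cell factors lie below 0 as filled points, down to SPIB at -1.66, while 1 XBP1 target is filled.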

How the data were processed

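The deposited table holds log2 signals of 54675 probe sets on 12 arrays, made by the authors with MAS5 and affy, per the submitters' processing notes, with no version given and no detection calls. Back on the linear scale every array had the same mean of 500.0 after trimming 2% at either end, so the arrays had been scaled to one level and were not normalized further. Array signals carry no depth. Precision depends on how many arrays there are and on the level of the probe set. In OCI-Ly7 the SE was 0.06 for the bright XBP1 200670_at and 0.57 for the dim 242021_at. Within a group, arrays had correlations of 0.967 to 0.972, and no 2 arrays were identical.

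By the platform annotation 41091 probe sets carried 1 symbol, 1801 several and 11721 none, and 62 were controls. All 41091 were fitted without a filter, on log2(signal + 16), with limma 3.58.1 (lmFit, eBayes with a trend) in R 4.3.3, with 4 group means and 8 residual degrees of freedom. Contrasts were siRNA minus control in each line, their difference, and Pfeiffer minus OCI-Ly7 controls. The fit was tested on simulated data. The genes named are all member probe sets, the list genes with the lowest p among those called, further called list genes and BATF, HSPA5 and CD38, which were chosen after their values were seen, and the 3 genes most correlated with each of 4 members. The counts of list genes without Pfeiffer siRNA replicate 3 were added after seeing the data. Members, lists and tests were chosen with earlier results of these data known. Some genes of the lists were not analysed here. Promoter windows come from RefSeq (GRCh38.p14). Figures used matplotlib 3.10.9.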

Additional observations from a re-analysis of the deposited data

Results flagged for a closer look

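The siRNA effect differed between the lines, by the test of the difference itself in limma, for the brightest probe set of 5 members. The titles name the control NTsiRNA in OCI-Ly7 and NTshRNA in Pfeiffer. Any difference in kind between these controls cannot be told apart from the line. The change in Pfeiffer minus that in OCI-Ly7 was 0.93 for PRDM1 (adjusted p = 0.00235), 0.78 for IRF4 (adjusted p = 0.00611), 0.73 for TENT5C (adjusted p = 0.000894) and 1.31 for ELL2 (adjusted p = 0.000967). For TNFRSF17 it was -0.75 (adjusted p = 0.00139). BCL6 also fell further in Pfeiffer, by a difference of -0.54 (adjusted p = 0.0138), and the part of this in the differences of the members was not tested. No other probe set of the 5 members had a called difference in limma. PRDM1 235668_at and 217192_s_at gave -0.15 and 0.66 (adjusted p = 0.867 and 0.315). IRF4 216986_s_at and 216987_at gave 0.64 and -0.54 (adjusted p = 0.113 and 0.764). TENT5C 220306_at gave 0.72 (adjusted p = 0.145). ELL2 214446_at, 226982_at and 214445_at gave 0.97, 0.83 and 1.43 (adjusted p = 0.294, 0.403 and 0.347). In limma without a trend, only the difference of ELL2 226099_at stayed called.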

How the results depend on the processing

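Over the 12 left-out arrays and the other settings, member probe sets kept direction and side of the threshold in 1379 cases. They crossed the threshold in 53 and turned sign without a call in 40, and none that was called turned sign. This tally leaves out the 2-fold minimum and includes probe sets that the main fit did not call. It also includes left-out arrays outside the groups compared, which can change the SE but not the estimate. Over all probe sets the counts called were 187 in OCI-Ly7, 1977 in Pfeiffer, 985 for the difference and 16641 at baseline. Fitting only probe sets above the median level gave 331 in OCI-Ly7. With probe sets whose suffix marks possible binding to other transcripts left out, they were 89, 1013, 506 and 9632 of fewer probe sets tested. Limma without a trend gave 27, 737 and 179 for the first 3 of these, and a 2-fold minimum 26, 236, 200 and 9179. With 1 probe set per gene and only genes above the median level, the baseline count was 7867 of 9888 genes. Leaving out 1 array gave 67 to 240 in OCI-Ly7, lowest without siRNA replicate 1, and 1284 to 1895 in Pfeiffer, lowest without control replicate 3. For the members, limma without a trend called 1 in OCI-Ly7 (TNFRSF17), 7 in Pfeiffer and 1 different between the lines. The Pfeiffer count, 10 in the main fit, was 8 with a pseudocount of 1. It was 7 without Pfeiffer control replicate 2 and 7 without Pfeiffer siRNA replicate 2. A 2-fold minimum left 0, 6 and 1 in OCI-Ly7, Pfeiffer and the difference. With 1 probe set per gene above the median level, 5 of 7 were called in Pfeiffer and 5 of 7 at baseline. Some of these settings test fewer features or ask for a larger change. Limma without a trend and the fits with 1 array left out still tested all 41091 probe sets with no minimum change. The cause of the shifts was not tested. Same-numbered siRNA and control arrays of a line did not deviate together (r = -0.038 to 0.059), so the numbers were not treated as pairs. With the replicate block the counts were 85 in OCI-Ly7 and 652 for the difference, TENT5C 226811_at in OCI-Ly7 was not called (adjusted p = 0.0709), nor was ELL2 226982_at in Pfeiffer. The dim probe sets of SDC1, IRF4 and XBP1 had standard errors of 0.39 to 0.57, so a change as small as that of XBP1 200670_at could not be called in them.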
